A study of Mus musculus with 20 samples.

Results

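Lineage-negative (Lin-) bone marrow cells of wild-type (WT) mice cultured with macrophage colony-stimulating factor (M-CSF) were compared with freshly sorted WT granulocyte-macrophage progenitors (GMPs), using 7 of the 20 arrays of the series. Lin- marrow cells are the immature fraction that lacks the surface markers of mature blood cells, and GMPs are the progenitors that give rise to granulocytes and monocytes. The 4 arrays of WT Lin- + M-CSF cells came from cells kept for 12 h with 10 ng/ml M-CSF, and the 3 arrays of WT GMPs came from cells taken straight from the sort. All mice were females on a C57BL/6 background; no source used here gives their age. The same comparison in mice carrying CreER and floxed Rptor alleles (4 Rptor Lin- + M-CSF and 3 Rptor GMP arrays) and 3 arrays of WT common myeloid progenitors (CMPs) serve as further values. The labels leave unstated whether the WT mice carried CreER and whether replicates came from separate animals, so the p-values rest on the scatter of these samples, which may be technical. Of 22180 genes with a probe set of 1 gene symbol, 16638 passed the filter on dim genes and were tested. Starting population, culture and M-CSF differ together between the groups, so their parts in any difference cannot be told apart, and neither can the numbers of cells of a type and the RNA that each cell holds. Whether cultured and fresh samples were amplified and hybridized together is not known here, so an effect of processing cannot be told apart either.

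M-CSF acts through the receptor tyrosine kinase encoded by Csf1r and supports the survival, growth and differentiation of monocytes and macrophages. On the path from GMP to monocyte, cells are known to lose the stem cell factor receptor Kit and the serine proteases of primary granules. They gain chemokine receptors, Fc and scavenger receptors and lysosomal enzymes under the transcription factors PU.1, IRF8 and KLF4.

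Total RNA of 1 to 5 ng was amplified and hybridized, and the deposited values are log2 signals. Arrays correlated within their group at 0.982 or higher, and the residual spread of an array was 0.184 to 0.236 log2 units in WT Lin- + M-CSF cells and 0.109 to 0.132 in WT GMPs. Probe sets of 1 gene often disagreed between these groups. Of 1082 genes with several probe sets, 252 (23.3%) had a pair whose changes lay more than 2 log2 units apart in WT Lin- + M-CSF cells against WT GMPs, while 2 did so in WT GMPs against WT CMPs. The count was 255 in Rptor Lin- + M-CSF cells against Rptor GMPs. Among genes called higher by at least 1 log2 unit that had another probe set above the filter, 61 of 90 had one that was also called higher and 13 had one called lower. Among genes called lower by at least 1 log2 unit, 22 of 79 had another called lower and 43 had one called higher. The brightest probe set of a gene is given below, and a gene's other probe set is given beside it where their changes differ by more than 2 log2 units. What set the probe sets apart was not tested, and genes with 1 probe set carry no such check.

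**Figure D1:**
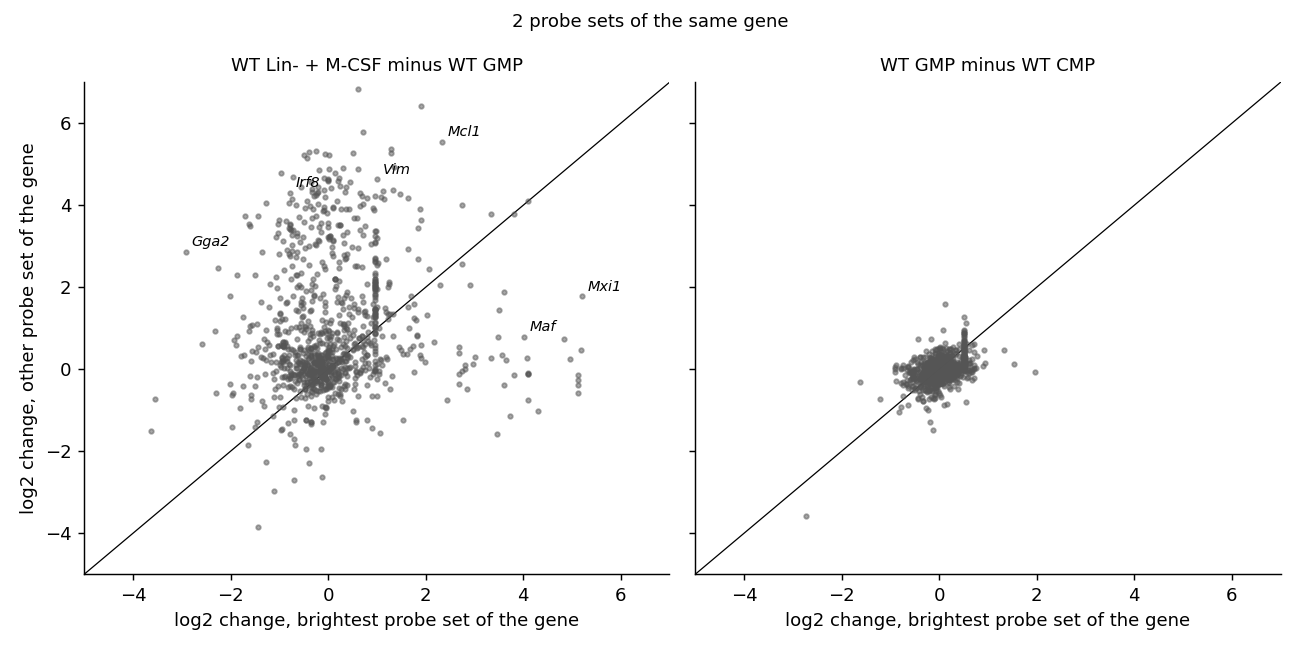
Log2 change of a gene's brightest probe set (horizontal axis) against that of another probe set of the same gene above the filter (vertical axis), for WT Lin- + M-CSF cells minus WT GMPs on the left and WT GMPs minus WT CMPs on the right. Each of the 1003 points per panel is a pair of probe sets and the line marks equal change. Points on the left reach 5.55 for the other probe set of Mcl1, against 2.35 for its brightest, while nearly all points on the right lie close to the line, and the column of points near a change of 1 on the left is Syne1, a gene with many probe sets.

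Most genes differed between the groups. limma called 9374 genes (56.3% of those tested) at a Benjamini-Hochberg adjusted p under 0.05, 3373 of them higher (20.3%) and 6001 lower (36.1%) in WT Lin- + M-CSF cells, and the median change of all genes was -0.14. At a change of at least 1 log2 unit, 1099 genes were higher (6.61%) and 1606 lower (9.65%), while at 3 units or more 97 were higher and 11 lower. For 9294 genes (55.9%) no array of one group lay within the range of the other. The split depended on the scaling. Under cyclic loess the median change was -0.02, 4539 genes were called higher and 4458 lower, and at 1 log2 unit 1484 were higher and 1018 lower. The median of every one of the 40 gene lists below was higher under cyclic loess, by 0.04 to 0.28, and counts under it are given for some of the lists. Of the genes named below, 8 were dim in WT GMPs: Il7r, Klrd1, Klra2, Msr1, Maf, Vcan, Ccr9 and Slc7a11 averaged under the filter of 3.86 there. They passed the filter through groups in which they were brighter, and the size of their change rests on a low value that was not shown to be above background.

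Csf1r, the M-CSF receptor, rose by 0.44 ± 0.10 log2 units (adjusted p = 8.68e-04). Its log2 signal was 9.78, 9.93, 9.98 and 9.95 on the WT Lin- + M-CSF arrays and 9.51, 9.50 and 9.42 on the WT GMP arrays, so that every cultured array lay above every GMP array. Spi1, which encodes PU.1, read 9.10, 9.37, 9.47 and 9.14 in WT Lin- + M-CSF cells and 8.05, 7.98 and 8.05 in WT GMPs, a rise of 1.24 ± 0.11. The 2 groups did not overlap for Spi1 either. Klf4, a transcription factor required for Ly6C-high monocytes, read 8.04, 8.25, 8.55 and 8.16 in WT Lin- + M-CSF cells against 7.95, 7.88 and 7.82 in WT GMPs and passed narrowly (0.36 ± 0.14, adjusted p = 0.0365); without 1 of the arrays it missed the threshold in 5 of 7 cases (adjusted p 0.0540 to 0.127 there). Of the 20 tested monocyte and macrophage transcription factors, 12 rose and 4 fell, with a median of 0.48 (13 rose and 3 fell with a gene's probe sets averaged).

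Id2, an inhibitor of E proteins active in dendritic and lymphoid cells, rose by 3.22 ± 0.15 in WT Lin- + M-CSF cells. It read 8.25, 8.42, 8.44 and 8.54 there against 5.19, 5.34 and 5.05 in WT GMPs. Maf, which encodes c-Maf, a macrophage transcription factor, read 6.87, 7.29, 7.99 and 7.39 in WT Lin- + M-CSF cells and 3.45, 3.30 and 3.33 in WT GMPs (4.03 ± 0.22), although its other probe set changed by 0.80. Bhlhe40, a repressor expressed in activated macrophages, rose by 2.05 ± 0.14, and Irf4, a factor of dendritic cells and B cells, rose by 1.99 ± 0.12. Irf8 has no single direction here. Its brightest probe set fell (9.38, 9.56, 9.30 and 9.54 in WT Lin- + M-CSF cells, 10.28, 10.15 and 10.25 in WT GMPs, -0.78 ± 0.17), while its other probe set read 10.80, 10.72, 10.70 and 10.92 in WT Lin- + M-CSF cells and 6.63, 6.45 and 6.36 in WT GMPs, a change of 4.31.

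Of the 7 granulocyte transcription factors, 3 rose and 1 fell (under cyclic loess 5 rose and 1 fell). Cebpe, needed for secondary granules, read 9.52, 9.55, 9.78 and 9.29 in WT Lin- + M-CSF cells and 8.87, 8.80 and 8.90 in WT GMPs (0.68 ± 0.16). Gfi1, a repressor that supports the neutrophil fate over the monocyte fate, differed by -0.27 ± 0.19 with overlapping arrays and did not pass (adjusted p = 0.235). Hmgb2, a chromatin protein on the same list, rose by 1.16 ± 0.12, and Xbp1, a factor of the unfolded protein response and of secretory cells, was the member that fell (-0.87 ± 0.10).

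The surface and effector genes of monocytes and macrophages moved mostly upward. Of 57 tested, 34 rose and 11 fell, 22 and 2 of them by at least 1 log2 unit, and the median change was 0.69; under cyclic loess 39 rose and 6 fell. The largest rises were those of Gpnmb, a glycoprotein of lysosomes and phagocytic cells, Msr1, the class A scavenger receptor, and Vcan, the matrix proteoglycan versican made by classical monocytes. Gpnmb read 10.35, 10.29, 10.38 and 10.62 in WT Lin- + M-CSF cells against 4.48, 5.22 and 4.46 in WT GMPs (5.69 ± 0.17). Msr1 read 8.27, 7.84, 8.89 and 8.11 in WT Lin- + M-CSF cells against 3.29, 3.22 and 3.79 in WT GMPs (4.84 ± 0.20), and Vcan read 8.27, 8.22, 7.95 and 8.43 in WT Lin- + M-CSF cells against 3.81, 3.45 and 3.68 in WT GMPs (4.57 ± 0.12). In WT CMPs the 3 genes averaged 4.51, 3.50 and 3.54.

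Receptors that guide monocytes rose too. Ccr2, the receptor for Ccl2 by which classical monocytes leave the marrow, read 10.70, 10.95, 10.66 and 11.06 in WT Lin- + M-CSF cells and 9.18, 9.15 and 8.98 in WT GMPs (1.74 ± 0.15). Cx3cr1, the fractalkine receptor, rose by 0.96 ± 0.16 with wide scatter among the cultured arrays (8.28, 8.76, 9.25 and 8.83 in WT Lin- + M-CSF cells against 7.71, 7.87 and 7.87 in WT GMPs). Adgre1, which encodes F4/80, read 8.10, 8.33, 8.46 and 8.20 in WT Lin- + M-CSF cells and 6.85, 6.82 and 6.62 in WT GMPs (1.51 ± 0.12). Cd68, a lysosomal membrane glycoprotein of macrophages, read 10.63, 10.79, 10.79 and 10.83 in WT Lin- + M-CSF cells against 8.75, 8.75 and 8.85 in WT GMPs (1.98 ± 0.10), and F10, coagulation factor X, rose by 2.05 ± 0.13. Lyz2, lysozyme of myeloid cells, rose by 0.69 ± 0.09. Ly6c2, the antigen that marks classical monocytes, ran the other way: it read 11.85, 12.27, 11.96 and 12.04 in WT Lin- + M-CSF cells and 12.48, 12.66 and 12.55 in WT GMPs and fell by 0.53 ± 0.10; Ly6c1 is a near-identical neighbour whose transcripts its probes could share.

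**Figure D2:**
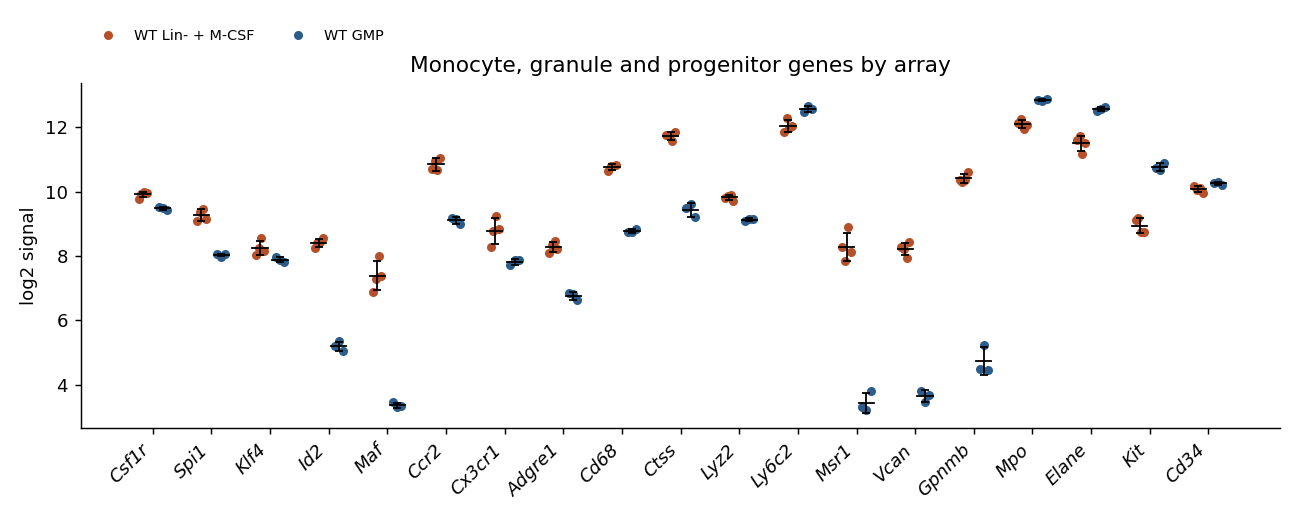
Log2 signal (vertical axis) of monocyte, granule and progenitor genes on each array, with WT Lin- + M-CSF arrays (4, orange) left of WT GMP arrays (3, blue) for every gene, and bars for the mean and SD. Msr1, Vcan, Gpnmb and Maf are far apart between the groups, Csf1r and Lyz2 differ by less than 1 log2 unit, and Ly6c2, Mpo, Elane and Kit are lower in the cultured cells.

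Promoter sequences were matched to 12872 of the 16638 tested genes (RefSeq, GRCm38.p6, 1 window of 300 bases around each gene's start). The ETS core that PU.1 sites share, GAGGAA on either strand, was found in 24 of 42 windows of the monocyte and macrophage surface genes (57.1%), in 9 of 15 of the primary granule genes (60%), which mostly fell or did not pass, and in 27.1% of all windows. Among T and NK cell genes it was found in 8 of 13 windows (61.5%). The share was 31.0% for genes called higher by at least 1 log2 unit and 26.4% for genes called lower by at least 1. A match is a run of letters and no measured site. The windows of Cd68 and Ctss are shown because both genes rose and hold the core more than once, with the core in capitals, 5′ to 3′ on the strand of the gene.
Cd68 (chr11:69666121-69666420, - strand): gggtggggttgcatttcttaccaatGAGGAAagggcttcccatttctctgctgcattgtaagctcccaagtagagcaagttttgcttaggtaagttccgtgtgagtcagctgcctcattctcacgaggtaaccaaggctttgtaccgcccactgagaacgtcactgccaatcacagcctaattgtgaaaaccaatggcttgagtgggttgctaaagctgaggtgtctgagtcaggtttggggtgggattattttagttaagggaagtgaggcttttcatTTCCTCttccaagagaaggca
Ctss (chr3:95526536-95526835, + strand): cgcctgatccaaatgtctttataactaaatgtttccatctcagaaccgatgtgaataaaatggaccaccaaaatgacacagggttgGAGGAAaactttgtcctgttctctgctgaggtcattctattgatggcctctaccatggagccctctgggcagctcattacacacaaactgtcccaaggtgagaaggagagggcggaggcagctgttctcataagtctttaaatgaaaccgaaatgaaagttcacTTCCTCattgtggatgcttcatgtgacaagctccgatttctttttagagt

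Lysosomal enzyme genes rose more often than they fell. Of 37 tested hydrolases and V-ATPase subunits, 17 rose and 8 fell (median 0.12), while under cyclic loess 21 rose and 3 fell (median 0.40). The cysteine protease cathepsin L (Ctsl) read 9.36, 9.22, 9.28 and 9.12 in WT Lin- + M-CSF cells and 6.10, 6.12 and 6.12 in WT GMPs (3.13 ± 0.13), and cathepsin S (Ctss), which processes the invariant chain, read 11.76, 11.77, 11.56 and 11.85 in WT Lin- + M-CSF cells against 9.48, 9.61 and 9.20 in WT GMPs (2.30 ± 0.14). Npc2, a carrier of cholesterol out of lysosomes, rose by 1.43 ± 0.09, and Atp6v1d, a subunit of the proton pump, rose by 1.84 ± 0.09. Among 23 scavenger and phagocytic receptors, 10 rose and 6 fell. Scarb2, a lysosomal membrane receptor, rose by 1.37 ± 0.11, whereas Scarb1, the receptor for high-density lipoprotein, fell by 1.34 ± 0.11.

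Genes of lipid handling rose in part. Of 15 tested, 8 rose and 2 fell (median 0.54). Apoc2, the apolipoprotein that activates lipoprotein lipase, read 7.86, 8.16, 8.90 and 8.26 in WT Lin- + M-CSF cells and 5.58, 5.76 and 5.74 in WT GMPs (2.60 ± 0.17), and Apoe rose by 1.21 ± 0.13. Of 19 cholesterol synthesis genes, 12 rose and 4 fell (median 0.59). Hmgcs1, the synthase before the rate-limiting reductase, read 8.93, 9.09, 8.86 and 9.10 in WT Lin- + M-CSF cells and 7.36, 7.20 and 6.77 in WT GMPs (1.89 ± 0.17), and Cyp51, the sterol demethylase, rose by 1.73 ± 0.13. Mylip, whose product marks the LDL receptor for degradation, fell by 1.62 ± 0.12. The sterol response element TCACNCCAC was found in 1 of 15 windows of these genes and in 1.21% of all windows. That window belongs to Hmgcs1 and is shown with the element in capitals.
Hmgcs1 (chr13:119690101-119690400, + strand): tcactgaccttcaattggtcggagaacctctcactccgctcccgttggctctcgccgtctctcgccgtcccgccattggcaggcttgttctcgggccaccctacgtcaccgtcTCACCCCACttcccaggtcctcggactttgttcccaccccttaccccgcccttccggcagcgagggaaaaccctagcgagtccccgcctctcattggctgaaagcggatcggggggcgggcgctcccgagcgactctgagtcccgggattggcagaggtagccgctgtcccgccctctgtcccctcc

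The lists of chemokine receptors and of inflammatory chemokines and cytokines were among those with the highest medians. The receptor list also holds receptors for other ligands, such as C3ar1. Of 15 receptors, 11 rose and 2 fell (median 1.74), and of 22 inflammatory chemokines and cytokines 17 rose and 1 fell (median 1.48). C3ar1, the receptor for the complement fragment C3a, read 8.52, 7.92, 8.57 and 7.89 in WT Lin- + M-CSF cells and 4.21, 4.03 and 4.05 in WT GMPs (4.13 ± 0.15). Ptafr, the receptor for platelet-activating factor, rose by 2.75 ± 0.17 and Cxcr6, a receptor of lymphocytes and NK cells, by 2.95 ± 0.13. Ccl3, a monocyte-attracting chemokine, read 9.12, 9.05, 9.11 and 8.95 in WT Lin- + M-CSF cells against 6.30, 6.73 and 6.50 in WT GMPs (2.55 ± 0.14), and Ccl9 rose by 1.83 ± 0.13. Ccl5, which T cells, NK cells and macrophages make, read 9.79, 9.86, 9.77 and 9.76 in WT Lin- + M-CSF cells and 5.91, 6.30 and 6.06 in WT GMPs (3.70 ± 0.21).

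Sensors of microbial molecules rose for 11 of 20 tested Toll-like receptors and co-receptors and fell for 2. Tlr13, a sensor of bacterial ribosomal RNA, averaged 9.20 ± 0.34 (SD, n = 4) in WT Lin- + M-CSF cells and 5.15 ± 0.31 (SD, n = 3) in WT GMPs (4.06 ± 0.21). Tlr7, a sensor of single-stranded RNA, rose by 3.10 ± 0.15, and Ly96, the MD-2 partner of TLR4, by 2.53 ± 0.18. Of 29 interferon-stimulated genes, 16 rose and 6 fell, with Zbp1, a sensor of Z-form nucleic acids, up by 2.48 ± 0.20 and Ifit1 by 1.20 ± 0.14. Of 17 NF-kB genes, 10 rose and 3 fell: the inhibitor gene Nfkbia rose by 0.87 ± 0.12, and Tnip1, another negative regulator, fell by 0.75 ± 0.11.

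The signal and feedback genes below the M-CSF receptor moved both ways, with a larger share of rises than over all genes. Of 25 tested, 10 rose (40%, against 20.3% of all genes) and 9 fell (36%, against 36.1% of all genes). Their median of -0.02 was positive (0.11) under cyclic loess. Spred1, an inhibitor of Ras signalling, rose by 1.51 ± 0.17, and Dusp2, a phosphatase that inactivates ERK, fell by 1.06 ± 0.14. Myc, whose induction is part of the early response to growth factors, read 9.62, 9.30, 9.34 and 8.99 in WT Lin- + M-CSF cells and 9.91, 9.80 and 10.03 in WT GMPs and fell by 0.60 ± 0.14. The immediate early genes divided in the same way, with 12 of 23 higher (52.2%) and 9 lower (39.1%). Fosb read 4.50, 4.14, 4.41 and 4.02 in WT Lin- + M-CSF cells against 6.25, 7.07 and 7.70 in WT GMPs and fell by 2.74 ± 0.28. Ier3, a stress and growth factor response gene, read 8.36, 8.06, 8.30 and 8.30 in WT Lin- + M-CSF cells against 5.12, 5.15 and 4.88 in WT GMPs (3.21 ± 0.13), and Btg2, an antiproliferative gene, rose by 3.04 ± 0.18.

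The list of primary granule and granulocyte progenitor genes and that of secondary granule and mature neutrophil genes went in opposite directions. Of 18 primary granule and granulocyte progenitor genes, 1 rose and 10 fell (median -0.33, or -0.06 under cyclic loess). Myeloperoxidase (Mpo) read 12.12, 12.26, 11.94 and 12.08 in WT Lin- + M-CSF cells and 12.84, 12.82 and 12.88 in WT GMPs and fell by 0.75 ± 0.09. Neutrophil elastase (Elane) read 11.62, 11.72, 11.17 and 11.51 in WT Lin- + M-CSF cells against 12.50, 12.55 and 12.63 in WT GMPs and fell by 1.06 ± 0.11, and the serine proteases Prtn3 and Prss57 fell by 1.16 ± 0.09 and 1.63 ± 0.17. All 4 were lower on every cultured array than on every GMP array, while arrays did not overlap, in either direction, for 55.9% of all genes tested. Of 22 secondary granule and mature neutrophil genes, by contrast, 20 rose and 1 fell (median 1.46). Ifitm6 read 10.04, 10.47, 11.30 and 10.43 in WT Lin- + M-CSF cells and 6.33, 6.76 and 6.61 in WT GMPs (4.00 ± 0.21). Chil3, a chitinase-like lectin also made by monocytes, read 10.22, 10.35, 10.73 and 10.14 in WT Lin- + M-CSF cells against 7.19, 7.35 and 6.97 in WT GMPs (3.19 ± 0.19), and S100a8, a calcium-binding protein of neutrophils and monocytes, rose by 1.32 ± 0.11. The third cultured array gave the highest median of this list (10.93 against 10.00 to 10.14 on the other cultured arrays and 7.91 to 8.21 on the GMP arrays).

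Markers of lymphoid cells also rose, and which cells gave these signals was not tested. Of 15 B cell genes, 13 rose and 1 fell (median 1.97). Of 16, 13 lay above the array median on each WT Lin- + M-CSF array, against 5 to 7 on WT GMP arrays, and their summed log2 level was 106 to 112 on WT Lin- + M-CSF arrays against 79.9 to 81.7 on WT GMP arrays. Il7r, the interleukin-7 receptor of lymphoid progenitors, read 9.23, 9.19, 8.89 and 9.21 in WT Lin- + M-CSF cells and 3.49, 3.95 and 4.06 in WT GMPs (5.30 ± 0.17), and Dntt, the terminal transferase of immature lymphocytes, read 9.54, 9.31, 9.23 and 9.42 in WT Lin- + M-CSF cells against 4.06, 4.07 and 4.17 in WT GMPs (5.28 ± 0.16). In WT CMPs they averaged 3.92 and 4.63. Blnk, an adaptor of the B cell receptor, rose by 3.18 ± 0.19.

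Of 18 T and NK cell genes, 15 rose and 1 fell (median 1.42). Between 14 and 16 of 18 lay above the array median on WT Lin- + M-CSF arrays, against 6 to 7 on WT GMP arrays, with summed log2 levels of 112 to 118 on WT Lin- + M-CSF arrays against 87.3 to 90.0 on WT GMP arrays. Klrd1, the CD94 receptor of NK cells, read 8.80, 8.78, 8.16 and 8.82 in WT Lin- + M-CSF cells and 3.34, 3.64 and 3.76 in WT GMPs (5.06 ± 0.20). Il2rb, a chain of the interleukin-2 and interleukin-15 receptors, rose by 3.14 ± 0.20, Cd3g by 2.55 ± 0.16 and Cd8a by 2.61 ± 0.13. These markers moved with the chemokine, interferon and transcription factor genes above, and their part in those results was not tested.

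Dendritic cell genes also rose, 12 of 20 against 2 that fell, and the brightest probe set of Irf8 was among those that fell. With a gene's probe sets averaged, 14 rose and 1 fell. Siglech, a lectin of plasmacytoid dendritic cells, read 9.76, 9.72, 9.69 and 9.77 in WT Lin- + M-CSF cells and 5.11, 5.51 and 5.38 in WT GMPs (4.41 ± 0.14), H2-Aa, an MHC class II chain, rose by 2.90 ± 0.20, and Ccr9 rose by 3.00 ± 0.14. Their summed log2 level was 139.7 to 148 in WT Lin- + M-CSF cells against 125 to 127 in WT GMPs. Of 11 mast cell and basophil genes 7 rose, with Cd200r3 up by 2.53 ± 0.14 and Fcer1a, the IgE receptor chain, by 1.96 ± 0.22. Of 17 megakaryocyte genes 8 rose and 3 fell, with platelet factor 4 (Pf4) up by 2.07 ± 0.21. Erythroid genes showed no common shift: 2 of 19 rose, 3 fell and 14 did not pass. The transferrin receptor Tfrc rose by 2.51 ± 0.15, while Car1, a carbonic anhydrase of red cell precursors, fell by 1.50 ± 0.37. Of 8 eosinophil genes, 0 rose and 5 fell, but 1 fell under cyclic loess and 3 after repeated quantile normalization. The largest change was that of eosinophil peroxidase (Epx), which averaged 8.25 ± 0.89 (SD, n = 4) in WT Lin- + M-CSF cells and 10.23 ± 0.56 (SD, n = 3) in WT GMPs.

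**Figure D3:**
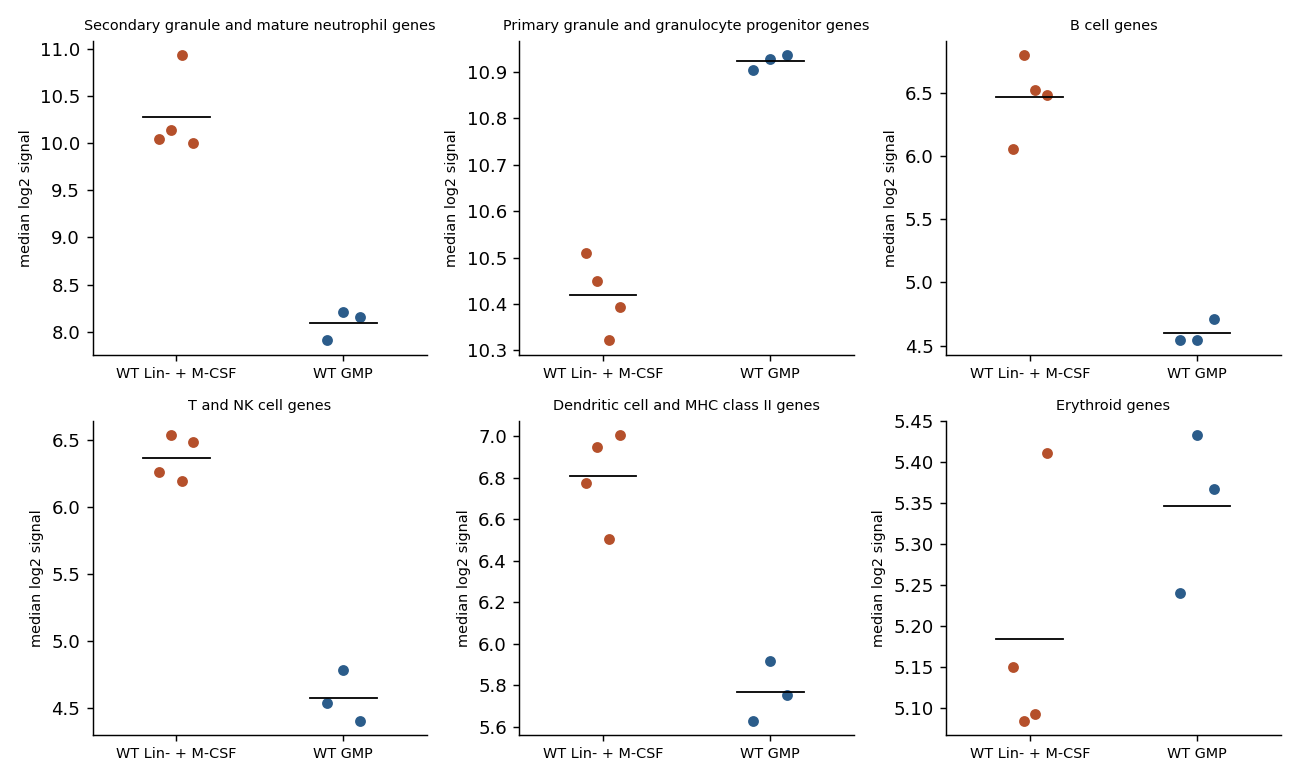
Median log2 signal of 6 marker lists (vertical axes, each with its own range that does not start at 0) on the WT Lin- + M-CSF arrays (4, orange, left) and the WT GMP arrays (3, blue, right), with lines for the group means. The mature neutrophil, B cell, T and NK cell and dendritic cell lists are higher on every cultured array, the primary granule list is lower on every cultured array, and the erythroid list overlaps between the groups.

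Progenitor receptors changed in both directions, and of 25 stem and multipotent progenitor genes 8 rose (32%) and 7 fell (28%). Kit, the stem cell factor receptor, read 9.12, 9.18, 8.74 and 8.73 in WT Lin- + M-CSF cells and 10.72, 10.67 and 10.89 in WT GMPs and fell by 1.82 ± 0.11. Flt3, the receptor of lymphoid and dendritic progenitors, read 8.38, 8.04, 7.99 and 8.30 in WT Lin- + M-CSF cells against 6.60, 6.52 and 6.37 in WT GMPs and rose by 1.68 ± 0.17. Cd34, a sialomucin used to gate GMPs, read 10.18, 10.05, 10.12 and 9.96 in WT Lin- + M-CSF cells against 10.28, 10.29 and 10.20 in WT GMPs; its arrays did not overlap, but the change of -0.18 ± 0.14 did not pass (adjusted p = 0.275). Il6ra, a chain of the interleukin-6 receptor, fell by 1.57 ± 0.12, and Il13ra1, a chain of the interleukin-4 and interleukin-13 receptors, rose by 2.27 ± 0.20.

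Replication genes fell almost as a group. Of 29 S phase genes, 0 rose and 25 fell (median -0.90), although under cyclic loess 3 rose and 21 fell. Mcm5, a subunit of the replicative helicase, read 8.86, 8.81, 8.88 and 8.60 in WT Lin- + M-CSF cells and 11.11, 11.07 and 11.16 in WT GMPs and fell by 2.33 ± 0.10, and Mcm2 read 8.69, 8.42, 8.39 and 8.41 in WT Lin- + M-CSF cells against 10.50, 10.59 and 10.62 in WT GMPs and fell by 2.09 ± 0.11. Pole, the leading-strand polymerase, fell by 2.32 ± 0.10 on its brightest probe set and changed by 0.94 on the other. Genes of G2 and mitosis did not follow: 13 of 29 rose and 8 fell (under cyclic loess 19 rose and 6 fell). Cenpe, a kinetochore motor, rose by 1.54 ± 0.15 and Cenpf, a kinetochore protein, by 1.39 ± 0.12, while the kinase gene Aurkb fell by 1.00 ± 0.10. Of 15 G1 cyclins, kinases and inhibitors, 4 rose (26.7%) and 6 fell (40%), near the 20.3% and 36.1% of all genes. Their median was -0.14, as for all genes. Among these G1 regulators, Cdkn1b, which encodes the inhibitor p27, read 8.37, 8.89, 8.52 and 8.77 in WT Lin- + M-CSF cells and 6.09, 6.45 and 6.09 in WT GMPs (2.43 ± 0.16). Cdkn1a, the p21 gene, rose by 1.51 ± 0.15, and the kinase gene Cdk4 fell by 1.30 ± 0.09.

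An E2F site, TTTCGCGC or TTTGGCGC on either strand, was found in 8 of 25 promoter windows of the S phase genes (32%), in 1 of 25 windows of the G2 and mitosis genes and in 1.36% of all windows. E2F factors are the main regulators of replication genes. The letters of this site were chosen after the changes had been seen. The window of Mcm5 is shown as the S phase gene of smallest p, with its pair of overlapping matches in capitals.
Mcm5 (chr8:75109259-75109558, + strand): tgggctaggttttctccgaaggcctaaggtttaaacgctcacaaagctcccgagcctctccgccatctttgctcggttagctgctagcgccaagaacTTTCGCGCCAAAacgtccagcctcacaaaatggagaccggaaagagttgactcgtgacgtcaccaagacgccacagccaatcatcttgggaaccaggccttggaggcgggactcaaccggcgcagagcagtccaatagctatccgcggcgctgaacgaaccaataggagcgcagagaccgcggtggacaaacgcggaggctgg

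Genes for making ribosomes and for respiration were lower. Of 32 ribosome biogenesis and RNA polymerase I genes, 1 rose and 23 fell (median -0.59). Under cyclic loess 4 rose and 17 fell (median -0.31). Bop1, of the complex that matures the large ribosomal subunit, read 7.34, 7.18, 7.48 and 7.37 in WT Lin- + M-CSF cells and 9.93, 9.88 and 9.99 in WT GMPs and fell by 2.59 ± 0.11, and its partner Pes1 fell by 1.83 ± 0.08. Polr1b, a subunit of RNA polymerase I, fell by 2.25 ± 0.14. Of 31 respiratory chain and ATP synthase subunits, 3 rose and 22 fell (median -0.49; under cyclic loess 6 rose and 15 fell), led by Uqcrc1 of complex III (9.50, 9.64, 9.50 and 9.58 in WT Lin- + M-CSF cells, 11.27, 11.45 and 11.44 in WT GMPs, a change of -1.83 ± 0.09). Of 20 glycolysis genes, 4 were higher (20%) and 7 lower (35%), close to the 20.3% and 36.1% of all genes, with a median of -0.08 (0.19 under cyclic loess). Slc16a1, a lactate transporter, fell by 2.12 ± 0.15, and Tpi1, triosephosphate isomerase, fell by 1.15 ± 0.09.

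Genes of amino acid supply rose more often than they fell. Of 23 genes of the ATF4 response and amino acid supply, 14 rose and 5 fell. Slc7a11, the cystine transporter, read 5.95, 5.64, 8.24 and 6.11 in WT Lin- + M-CSF cells and 2.82, 2.93 and 2.86 in WT GMPs (3.62 ± 0.41), and its other probe set rose by 1.89. The stress factor gene Ddit3 rose by 1.52 ± 0.13 and Asns, asparagine synthetase, by 1.38 ± 0.12. Hmox1, heme oxygenase, read 9.34, 9.22, 10.08 and 9.21 in WT Lin- + M-CSF cells against 5.42, 5.49 and 5.70 in WT GMPs (3.93 ± 0.19), and Fth1, the ferritin heavy chain, rose by 1.20 ± 0.10. Of 19 ER chaperone genes, 4 rose and 11 fell (under cyclic loess 4 rose and 6 fell). Of 13 cytosolic heat shock genes 3 rose (23.1%) and 5 fell (38.5%), close to the 20.3% and 36.1% of all genes. Of 12 survival and death genes of the Bcl2 family, 6 rose (50%) and 4 fell (33.3%). Mcl1, a survival protein, rose by 2.35 ± 0.11 on its brightest probe set and by 5.55 on the other, and Bid, a promoter of cell death, fell by 1.40 ± 0.14.

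**Figure D4:**
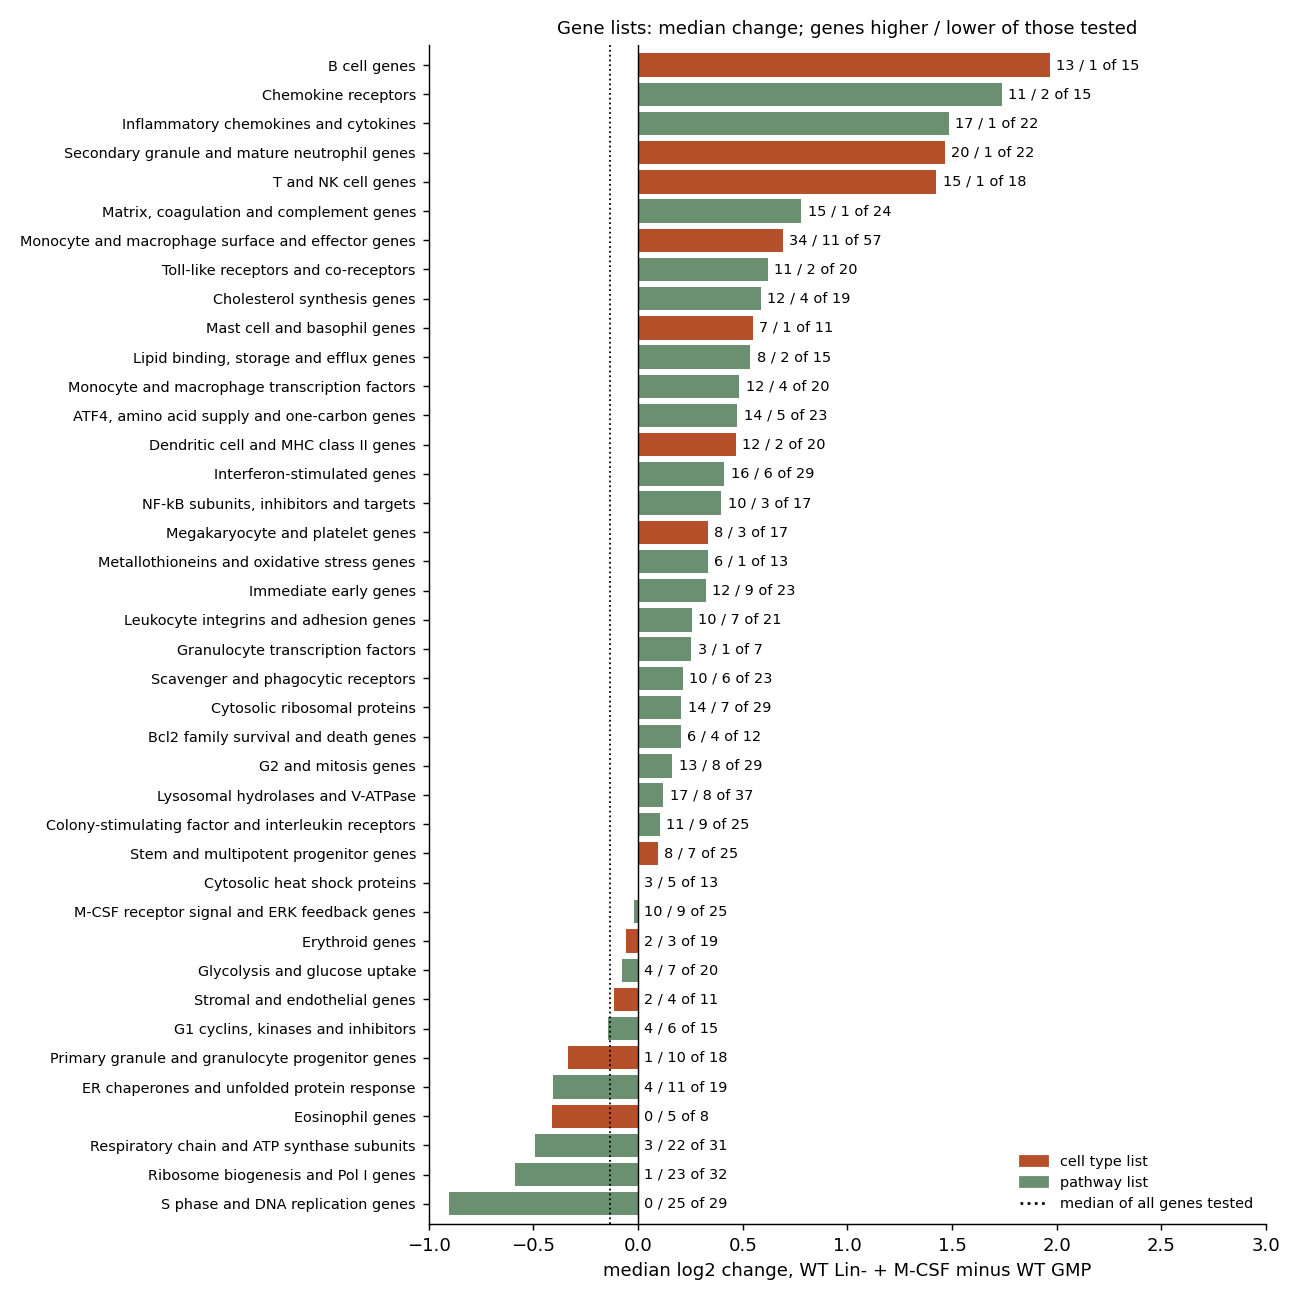
Median log2 change (WT Lin- + M-CSF minus WT GMP, horizontal axis) of the tested members of 40 gene lists, with the number called higher / lower of those tested written beside each bar. The dotted line is the median of all genes tested (-0.14). B cell genes and the list of chemokine receptors, which also holds C3ar1, have the highest medians and S phase genes the lowest.

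The 15 largest rises among genes open to naming whose arrays did not overlap mixed cell type markers with broadly expressed genes. Stfa2l1, a stefin A gene of a multigene family, was first (10.29, 9.89, 11.46 and 9.88 in WT Lin- + M-CSF cells, 4.14, 4.31 and 4.62 in WT GMPs, 6.02 ± 0.30). Vmp1, an autophagy protein of the endoplasmic reticulum, rose by 5.73 ± 0.13 with 1 probe set. Besides Gpnmb, Msr1, Il7r, Dntt and Klrd1, the list held Klra2, one of a family of similar NK receptor genes (4.98 ± 0.30), Slamf7, a receptor of NK and plasma cells (4.80 ± 0.14), and Ly6d, a marker of early B cell commitment (4.87 ± 0.19). The other 5 were Mxi1, Chd3, Atp5d, Myl12a and the pseudogene Morf4l1-ps1, and each has a further probe set that changed by less; that of Morf4l1-ps1, under the filter, changed by 0.18 beside 4.77. Mxi1, an antagonist of Myc, changed by 5.21 and 1.78 on its 2 probe sets, and Chd3, a chromatin remodeller, by 5.19 and 0.48. Atp5d, an ATP synthase subunit, changed by 4.96 and 0.26, and Myl12a, a myosin light chain, by 4.83 and 0.73.

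The 15 largest falls among genes open to naming were smaller and included Dtl, an adaptor for the degradation of replication factors, which read 7.86, 7.84, 8.08 and 7.90 in WT Lin- + M-CSF cells and 10.72, 10.85 and 10.77 in WT GMPs and fell by 2.86 ± 0.10. Cad, the enzyme that starts pyrimidine synthesis, fell by 2.76 ± 0.11, and Fpgs, which retains folates in the cell, fell by 2.84 ± 0.12. The histone methyltransferase gene Ehmt2 fell by 2.69 ± 0.17 and the histone gene H4f16, one of a near-identical family, by 3.54 ± 0.24, with a change of -0.73 on its other probe set. Gcn1, a ribosome-associated activator of the amino acid response, had the largest fall of these (3.62 ± 0.16, and 1.52 on its other probe set); 3 genes of small RNAs, which were counted but not named, fell by more. Gga2, a sorting adaptor of the Golgi, fell by 2.91 ± 0.14 on its brightest probe set but changed by 2.87 on the other. The remaining 8 were Fcho1, Dhrs11, Fosb, Sema6b, Ankrd27, Lhpp, Med25 and Il31ra, with changes between -3.04 and -2.65.

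The same comparison in Rptor mice uses other arrays. There limma called 10152 genes (61%), 3857 higher (23.2%) and 6295 lower (37.8%), of which 1352 (8.13%) and 1588 (9.54%) by at least 1 log2 unit. Of these, 903 of the higher genes were among the 1099 of the WT comparison (82.2% of the WT genes and 66.8% of the Rptor genes). Likewise, 1223 of the lower genes were among the 1606 of the WT comparison (76.2% and 77.0%). The change differed between the genotypes for 793 genes (4.77%), 305 with the WT change above the Rptor change and 488 below; leaving out the second WT GMP array left 488 genes. Among the 57 monocyte and macrophage surface genes, 24 differed, 18 with the WT change above and 6 below. Of 29 S phase and 32 ribosome biogenesis genes, 0 differed at an adjusted p under 0.05 in limma, and 4 and 2 did at an unadjusted p under 0.05. With 4.77% of all genes differing, lists of this size would hold few such genes, so nothing is read from these counts.

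Several of the largest WT rises were smaller in Rptor mice. Vcan changed by -0.34 ± 0.12 in Rptor Lin- + M-CSF cells against Rptor GMPs (3.72 and 4.05 on average), and the difference of the changes was 4.91 ± 0.17 (adjusted p = 2.42e-14). Msr1 changed by 0.17 ± 0.20 there, with both Rptor means under the filter (3.71 in Rptor Lin- + M-CSF cells and 3.55 in Rptor GMPs; difference 4.67 ± 0.28, adjusted p = 1.04e-09). Gpnmb rose by 1.98 ± 0.17, where Rptor GMPs averaged 8.88 against 4.72 ± 0.44 (SD, n = 3) in WT GMPs and Rptor Lin- + M-CSF cells 10.86 against 10.41 ± 0.14 (SD, n = 4) in WT Lin- + M-CSF cells. Csf1r rose more in Rptor mice (1.24 ± 0.10, difference -0.80 ± 0.14), and the brightest probe set of Irf8 rose there (1.43 ± 0.17). The lymphoid genes Il7r and Klrd1 rose by 5.04 ± 0.17 and 4.75 ± 0.20 in Rptor cells, and Mcm5 changed by -2.30 ± 0.10. The Rptor probe set itself read 7.05, 6.95, 7.34 and 7.17 in WT Lin- + M-CSF cells and 9.25, 9.17 and 9.44 in WT GMPs, a fall of 2.15 ± 0.12 within WT mice, beside -2.17 ± 0.12 in Rptor mice.

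**Figure D5:**
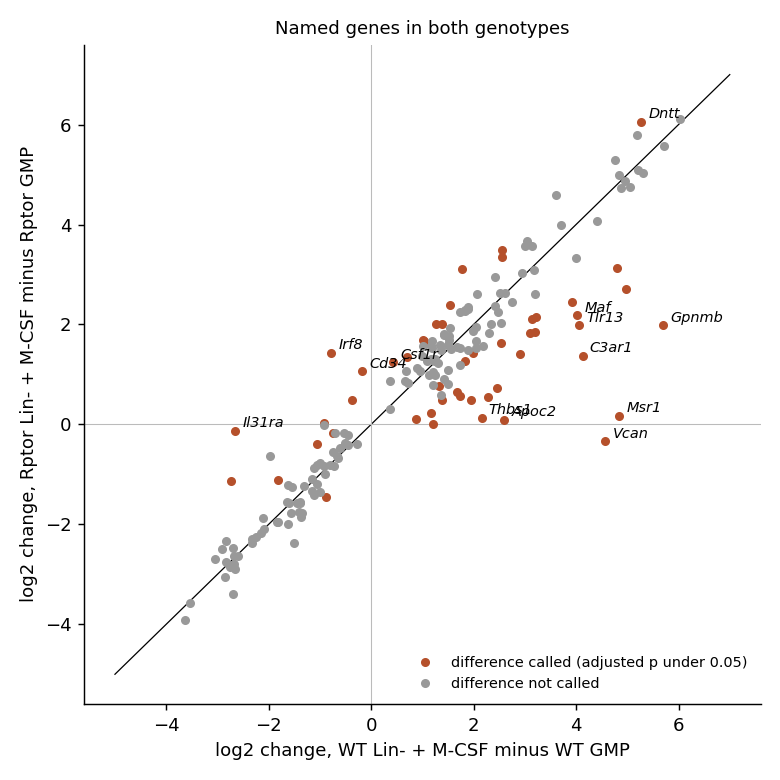
Log2 change of the 190 genes chosen for naming in WT mice (horizontal axis) against Rptor mice (vertical axis), both as Lin- + M-CSF minus GMP; orange points mark genes whose changes differed between the genotypes. Most points lie near the line of equal change, whereas Vcan, Msr1, Gpnmb, C3ar1 and Apoc2 lie below it and Irf8 above it.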

How the data were processed

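Expression was measured in 20 samples of 6 groups, placed by their titles, and 7 of these form the comparison. Per the labels' protocols, 1 to 5 ng of total RNA was amplified by the NuGEN WTA Pico protocol and hybridized, with a biotin label, to 1-colour arrays. The values deposited by the authors are log2 signals between 1.77 and 13.2. RMA, limma and Partek 6.6 appear, with no roles, in the submitters' processing notes. Because RMA sets arrays to common quantiles, a shift of most transcripts together would not be seen. Detection above background was not assessed, and precision is limited by how few arrays there are.

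The platform annotation gave 23521 of 41345 probe sets a single gene symbol, 1814 several and 16010 none. Entrez identifiers of 23328 were found in RefSeq (GRCm38.p6). Each of 22180 genes was represented by its brightest probe set on average, and the 16638 whose mean reached log2 3.86, the 25th percentile of single-gene probe sets, were tested. limma 3.58.1 in R 4.3.3 was fitted to 20 arrays with 6 group means (14 residual degrees of freedom). Changes are Lin- + M-CSF minus GMP in log2 units ± the standard error of the fit, and a gene was called at a Benjamini-Hochberg adjusted p under 0.05 over the 16638 genes. The difference between WT and Rptor changes was tested in the same fit.

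The comparison and the 40 gene lists (875 genes, 769 tested) were chosen with earlier results of these data known, so list counts and medians are descriptions. Genes named are the 15 largest rises and the 15 largest falls among called genes without overlap between the groups' arrays, up to 4 members of smallest p per list, and a fixed set of myeloid genes. Predicted genes, receptor segments, olfactory genes and small RNAs were counted but not named. Promoter windows (RefSeq, GRCm38.p6) were searched for letters on both strands with Python 3.11.15, and figures were drawn with matplotlib 3.10.9. The main fit did not pair samples by replicate number. The deviations of same-numbered WT Lin- + M-CSF and WT GMP arrays correlated at -0.00890 to 0.0440, but the arrays are too few for this to exclude pairing. Alternatives were other filters, other ways to choose or average probe sets, each pair of groups alone, a replicate block, array weights, trended and robust eBayes, repeated quantile normalization, median centring, cyclic loess, an ordinary linear model and each array left out.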

Additional observations from a re-analysis of the deposited data

Results flagged for a closer look

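The change in WT mice (WT Lin- + M-CSF minus WT GMP) differed from that in Rptor mice (Rptor Lin- + M-CSF minus Rptor GMP) for 41 of the 134 genes named in the text, by limma's test of the difference at an adjusted p under 0.05, beside 4.77% of all genes tested. The 134 genes were chosen largely for the size or p of the WT change, which enters this difference, so nothing is read from their share. The WT change was above the Rptor change for 26 of them. The differences of at least 2 log2 units were 4.91 for Vcan, 4.67 for Msr1, 3.71 for Gpnmb, 2.76 for C3ar1, 2.51 for Apoc2, 2.27 for Klra2, 2.07 for Tlr13 and 2.02 for Thbs1. These include receptors and secreted or lysosomal proteins of macrophages. Smaller differences of at least 1 log2 unit were 1.84 for Maf, 1.73 for Il13ra1, 1.67 for Slamf7, 1.49 for H2-Aa, 1.48 for Hmox1, 1.47 for Fcer1a, 1.34 for Chil3, 1.26 for Tlr7, 1.20 for Apoe, 1.06 for Id2, 1.04 for Flt3 and 1.02 for Ctsl. The rest of this direction were 0.90 for Cd200r3, 0.88 for Asns, 0.77 for Nfkbia, 0.58 for Xbp1, 0.55 for Cd68 and 0.55 for S100a8. The WT change was below the Rptor change for 15 genes, with -2.53 for Il31ra, -2.21 for Irf8, -1.61 for Fosb, -1.24 for Cd34, -0.95 for Pecam1, -0.93 for Cd3g, -0.81 for Ccl3, -0.80 for Csf1r, -0.78 for Dntt, -0.70 for Kit, -0.68 for Vim, -0.67 for Dusp2, -0.65 for Lyz2, -0.63 for Cenpf and -0.57 for Tnip1. Irf8 rose in Rptor mice on the same probe set that fell in WT mice. Its other probe set rose by 4.31 in WT mice and is not given here for Rptor mice. The differences for Maf and Vim likewise are those of the brightest probe set alone. Genotype, population and culture are the labels of these groups, and no explanation was tested.

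Among the 4 WT Lin- + M-CSF arrays, 1 array stood apart from the other 3 for 9 of the 134 genes. This was judged by its gap to the nearest array relative to the whole range. Chance gives about 1 in 20 for a single gene, but genes on 1 array can deviate together, so nothing is read from the count. It was the third array for Il7r, Klrd1 and Hmox1, and that array had the largest residual spread of the 4 (0.236 log2 units). The array standing apart was the highest for Spred1 (7.82, next 7.02), Mcm2 (8.69, next 8.42), Hmox1 (10.08, next 9.34), Fth1 (12.32, next 11.91) and Timp2 (8.59, next 7.69). It was the lowest for Il7r (8.89, next 9.19), Klrd1 (8.16, next 8.78), Cd3g (6.12, next 6.65) and Mylip (7.17, next 7.42). Each of these genes kept its call in WT Lin- + M-CSF cells against WT GMPs with any single array left out.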

How the results depend on the processing

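The 4 counts of called genes stayed within 1.5 times their value under all settings with 2 exceptions, both for the 793 genes whose change differed between the genotypes: array weights gave 1330, and leaving out single arrays gave 488 to 842, the lowest without the second WT GMP array. For WT Lin- + M-CSF against WT GMP, leaving out single arrays gave 8348 to 9077 called genes, or 2650 to 2775 at 1 log2 unit, and in Rptor mice 9124 to 10035. Cyclic loess moved the share of higher calls to 50.5%, against 36.0%. With the replicate number as a block, 9094 genes were called, and this block lost the call of 1 of 190 named genes. Restricting the test to genes with 1 probe set, chosen after seeing the data, gave 8734. Of 3953 values of the 190 genes under the alternatives, 3910 kept direction and call, 37 lost the call and 6 reversed. The reversals all came from the choice of probe set. With the lowest-mean probe set, added after seeing the data, the change was 2.87 for Gga2, 4.31 for Irf8, 0.94 for Pole and 4.06 for Edem1, and with all probe sets of a gene averaged it was 1.76 for Irf8 and 1.64 for Edem1. The calls lost were those of Klf4, Cebpd, Siglecf, Ear6, Il5ra, Gga2 and Jund, 20 of 37 of them when 1 array was left out; the cause was not tested. Without a filter on dim genes the medians of 3 of 40 lists moved by more than the spread between arrays, and with centred arrays 0 did.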

Other observations

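Some gene groups outside the account above also differed. Of 24 matrix, coagulation and complement genes, 15 rose and 1 fell in WT Lin- + M-CSF cells relative to WT GMPs (median 0.78, against -0.14 for all genes). Thbs1, the matrix protein thrombospondin 1 of platelets and monocytes, read 9.33, 9.83, 8.40 and 9.82 in WT Lin- + M-CSF cells and 7.34, 6.81 and 7.42 in WT GMPs (2.16 ± 0.27). Timp2, an inhibitor of matrix metalloproteases, rose by 1.89 ± 0.18. Of 21 leukocyte integrin and adhesion genes, 10 rose and 7 fell. Itgax, the CD11c integrin chain of dendritic cells and macrophages, rose by 1.42 ± 0.13, Itgb7, an integrin chain of lymphocytes and mast cells, rose by 1.35 ± 0.13, and the endothelial and leukocyte adhesion gene Pecam1 fell by 0.93 ± 0.13.

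Of 29 cytosolic ribosomal protein genes, 14 rose and 7 fell, while under cyclic loess 19 rose and 2 fell. Probe sets of 1 gene gave different changes here too. The brightest probe set of Rpl13 read 12.28, 12.33, 12.17 and 12.17 in WT Lin- + M-CSF cells and 11.58, 11.60 and 11.55 in WT GMPs, a change of 0.66. Its other probe set read 12.27, 12.29, 12.31 and 12.17 in WT Lin- + M-CSF cells and 8.60, 8.05 and 8.21 in WT GMPs, a change of 3.97. Vim, the intermediate filament vimentin, changed by 1.00 on its brightest probe set and 4.64 on the other. What set these probe sets apart was not tested.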
